A study of Mus musculus with 11 samples.

Results

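The 8 genes Pf4, Lyve1, Cd163, F13a1, Cbr2, Ms4a7, Folr2 and Stab1 are markers of border-associated macrophages, the macrophages that line the meninges, the vessels and the choroid plexus of the brain. They were taken as a list of names and matched to array probes through the RefSeq accession of each probe. All 8 of the 8 were found among 23283 gene symbols on the array, and all 8 were among the 19555 genes that passed the filter on dim probes. Expression was measured in C57BL/6N mouse microglia on 11 single-colour arrays. Microglia of adult female mice were sorted by flow cytometry and gave 2 arrays (A_FACS), and sorted microglia of newborn mice of both sexes gave 3 (NB_FACS). The sort took cells with intermediate CD45.2 and high CX3CR1, a gate that leaves out cells with high CD45, among which border macrophages are usually counted. Newborn microglia were also shaken off mixed glial cultures of pooled brains, which had been kept for weeks and fed with L-929 conditioned medium. They were then kept for 1 day in serum medium without cytokines (NB_Control, 3 arrays) or with 3 human cytokines (NB_Stim, 3 arrays). The cytokines were CX3CL1, IL-34 and TGF-β1, each at 100 ng/mL. Age therefore goes with sex between the sorted groups. The day of culture goes with the way of isolation and with the weeks in mixed culture before it. These cannot be told apart.

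Border-associated macrophages share an origin and many surface proteins with microglia, but in the healthy brain microglia carry little of most of the 8 transcripts. Stab1 was an exception in these data, at 9.95 and 9.8 on the log2 scale in the sorted adult cells. Several of the gene products are endocytic receptors: CD163 takes up haemoglobin bound to haptoglobin, stabilin 1 is a scavenger receptor, LYVE1 binds hyaluronan and folate receptor beta binds folate. In adult brain such genes serve to separate border macrophages from parenchymal microglia, while early microglia can still express some of them. Pf4 also belongs to platelets, and Lyve1 and Stab1 to lymphatic and sinusoidal endothelium.

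Values are quantile normalised log2 intensities, and a difference of 1 is a factor of 2 on the linear scale. Between 66.8% and 80.4% of the probes on an array were well above background by the scanner's flag, and the number of arrays limits the precision. Slide 2 carried the newborn arrays of replicate 3, with a 75th percentile of the signal of 444 to 507, and slide 1 the remaining 8 arrays, with 174 to 315. The microglial label was checked with 11 measured homeostatic markers, whose summed intensity was 289000 to 317000 in A_FACS, 167000 to 193000 in NB_FACS, 37800 to 63700 in NB_Control and 139000 to 151000 in NB_Stim. Cultured replicates 1 and 2 were close to each other, with a mean absolute log2 difference over all genes of 0.172 in NB_Control and 0.19 in NB_Stim, against 0.406 to 0.499 for pairs with replicate 3. The sorted NB_FACS arrays had the same order, 0.257 against 0.411 and 0.497. Pairs with replicate 3 also cross the slides. The study's methods call the replicates independent. If cultured replicates 1 and 2 shared cells, p-values would partly measure technical spread.

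The probe sequences show which transcripts were read. Cd163 and Ms4a7 each had a pair of probes, designed to different RefSeq transcripts. The first 30 bases of these 4 probes are shown, since the probes of a pair gave unequal signal.
Cd163 probe 1, for XM_006506800.1: ctatttctggaattaaaaaggggtcattca
Cd163 probe 2, for NM_001170395.1: ggtgaaaagctagttgggaacttatgtgat
Ms4a7 probe 1, for NM_001276398.1: tgtctgatagccctggggagtgctttccca
Ms4a7 probe 2, for NM_027836.6: ctctccattatctctgaaaaaatctcaacc
Cd163 probe 1 was well above background on 1 of 11 arrays, NB_FACS replicate 3, and did not pass the filter, so Cd163 rests on probe 2. Probe 2 passed through NB_FACS alone, so each Cd163 difference from NB_FACS is set against the group that admitted the gene. Both Ms4a7 probes passed and were averaged. They gave differences of 6.63 and 6.70 between NB_Control and NB_FACS, and of -2.84 and -4.0 between A_FACS and NB_FACS. In A_FACS replicate 1, Ms4a7 probe 2 was not well above background. The other 6 genes had 1 probe each.

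RefSeq promoter windows (GRCm38.p6) were listed for 7 of the 8 genes, 10 windows in all, and their 250 bases before the transcript start were searched on both strands for 3 short motifs. These were the PU.1 core GAGGAA, the MAF site TGCTGA and the SMAD core CAGAC, named for a myeloid factor, a macrophage factor and the factors that act downstream of TGF-β. The PU.1 core was in 4 of the 10 windows and in 23.3% of all 32851 windows, the MAF site in 3 and in 16.1%, and the SMAD core in 4 and in 42.2%. Cbr2 and Folr2 were called lower with the cytokines when the replicate number was entered as a block, though not in the main fit. Their windows and those of Pf4 and Ms4a7, which rose in culture, are shown with the motif letters of either strand in capitals.
Pf4, chr5:90772185-90772434, plus strand: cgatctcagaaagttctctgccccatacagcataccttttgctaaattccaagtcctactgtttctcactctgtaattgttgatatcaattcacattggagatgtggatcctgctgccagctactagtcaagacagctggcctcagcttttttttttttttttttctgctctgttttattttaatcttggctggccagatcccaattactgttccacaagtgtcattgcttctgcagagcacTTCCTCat
Ms4a7, first window, chr19:11336147-11336396, minus strand: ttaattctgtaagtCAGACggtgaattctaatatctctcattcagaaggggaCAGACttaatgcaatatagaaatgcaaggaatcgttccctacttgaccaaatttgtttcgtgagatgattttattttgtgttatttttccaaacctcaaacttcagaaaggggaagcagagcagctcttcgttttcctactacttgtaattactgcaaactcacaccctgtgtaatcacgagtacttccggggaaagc
Cbr2, chr11:120732022-120732271, minus strand: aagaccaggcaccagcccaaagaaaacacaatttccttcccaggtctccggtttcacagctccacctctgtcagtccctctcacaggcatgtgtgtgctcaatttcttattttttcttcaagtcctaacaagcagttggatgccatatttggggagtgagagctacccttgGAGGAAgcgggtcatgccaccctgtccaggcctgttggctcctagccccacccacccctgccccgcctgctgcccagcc
Folr2, second window, chr7:101845332-101845581, minus strand: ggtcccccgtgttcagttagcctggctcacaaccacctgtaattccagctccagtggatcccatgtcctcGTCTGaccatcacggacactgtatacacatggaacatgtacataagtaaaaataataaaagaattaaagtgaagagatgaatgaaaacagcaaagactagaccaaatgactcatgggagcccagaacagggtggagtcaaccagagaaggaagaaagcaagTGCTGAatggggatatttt
Pf4 and Cbr2 each held 1 PU.1 core, the first of the 2 Ms4a7 windows held 2 SMAD cores and the second held none of the 3 motifs, and this Folr2 window held 1 MAF site and 1 SMAD core. The Stab1 window held 1 of each motif, as 1.6% of all windows held all 3. A match of letters is a description and not a binding site. In the RefSeq gene order, Pf4 lies next to Ppbp and Folr2 next to Folr1. Lyve1 was not in the promoter table.

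**Figure D1:**
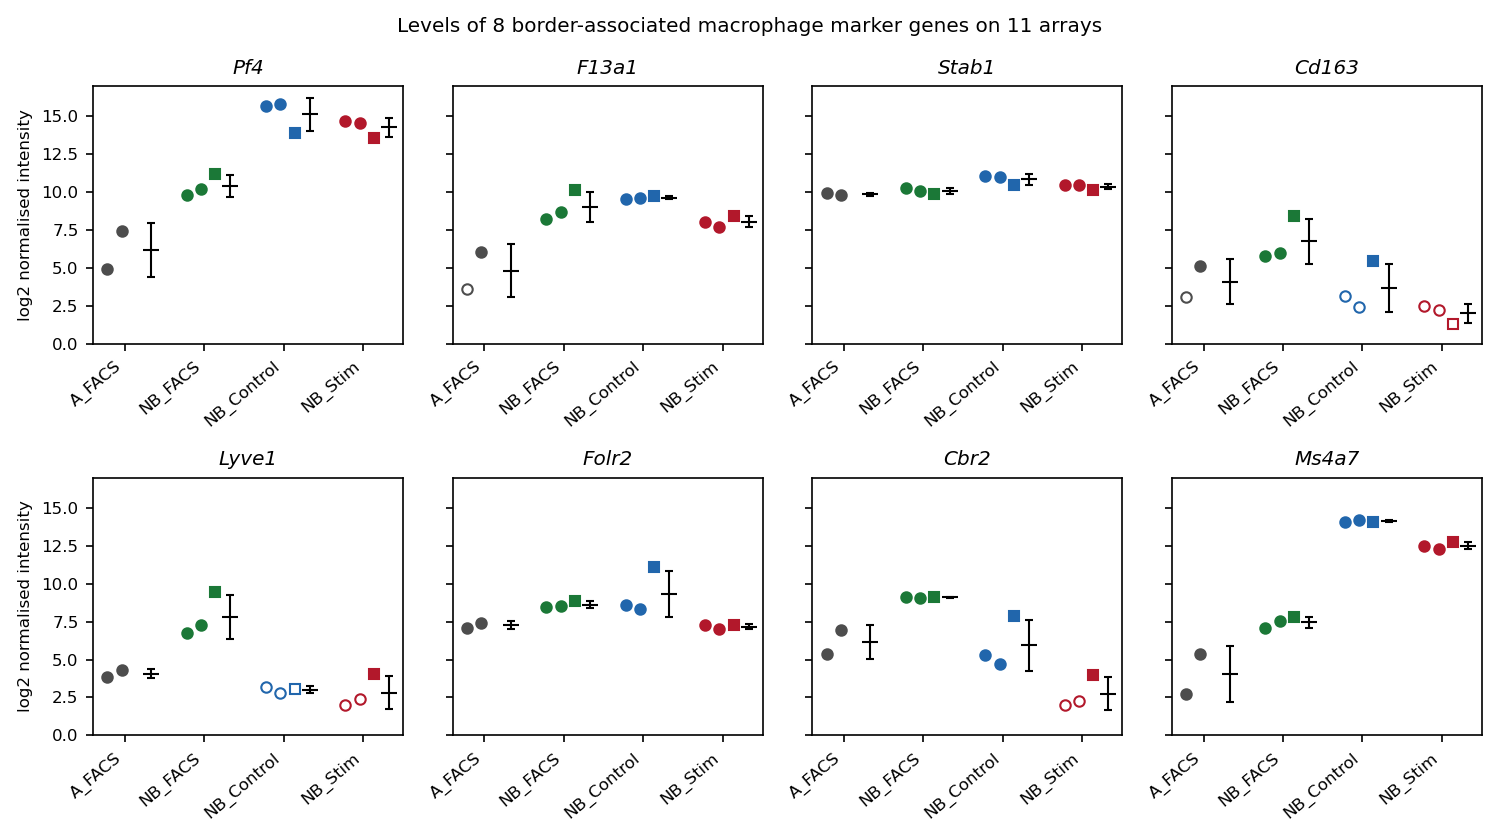
Log2 normalised intensity (vertical axis) of the 8 genes on each of the 11 arrays, by group; circles are arrays of slide 1, squares arrays of slide 2, open symbols arrays on which the gene was not well above background, and the bar is the group mean ± SD. Pf4 and Ms4a7 sit highest in the cultured groups, while Lyve1, Cd163 and Cbr2 sit highest in NB_FACS.

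The genes for secreted proteins were Pf4, a platelet and macrophage chemokine also called CXCL4, and F13a1, the catalytic subunit of coagulation factor XIII. Pf4 measured 4.96 and 7.47 in A_FACS, 9.83, 10.22 and 11.20 in NB_FACS, 15.70, 15.82 and 13.87 in NB_Control and 14.69, 14.59 and 13.54 in NB_Stim, in replicate order. Every cultured array lay above every sorted array, and the cultured groups overlapped. F13a1 measured 3.60 and 6.06 in A_FACS, 8.22, 8.68 and 10.12 in NB_FACS, 9.52, 9.61 and 9.75 in NB_Control and 8.02, 7.68 and 8.40 in NB_Stim. Its adult arrays lay below all newborn arrays, replicate 1 being not well above background, and NB_FACS overlapped both cultured groups.

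Of the scavenger and uptake receptors, Stab1 varied little and Cd163 and Lyve1 varied much. Stab1 measured 9.95 and 9.80 in A_FACS, 10.27, 10.07 and 9.91 in NB_FACS, between 10.45 and 11.08 in NB_Control and 10.44, 10.48 and 10.16 in NB_Stim. The 3 NB_Control values lay above all sorted values. Cd163 measured 3.06 and 5.16 in A_FACS, 5.80, 6.02 and 8.44 in NB_FACS, 3.18, 2.40 and 5.48 in NB_Control and 2.52, 2.21 and 1.33 in NB_Stim. It was well above background on all NB_FACS arrays, on replicate 2 of A_FACS, on replicate 3 of NB_Control and on 0 of 3 NB_Stim arrays. Lyve1 measured 3.86 and 4.28 in A_FACS, 6.75, 7.25 and 9.47 in NB_FACS, 3.19, 2.79 and 3.07 in NB_Control and 1.97, 2.40 and 4.05 in NB_Stim. All 3 NB_FACS values lay above all others, 0 of 3 NB_Control arrays were well above background, and in NB_Stim replicate 3 alone was. Folr2 measured 7.09 and 7.44 in A_FACS, 8.43, 8.54 and 8.89 in NB_FACS, 8.62, 8.31 and 11.07 in NB_Control and 7.25, 7.0 and 7.26 in NB_Stim. NB_Control replicate 3 stood 2.45 and 2.75 above the other replicates of its group.

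Cbr2, a carbonyl reductase, measured 5.39 and 6.94 in A_FACS, 9.10, 9.08 and 9.09 in NB_FACS, 5.28, 4.70 and 7.84 in NB_Control and 2.00, 2.28 and 3.97 in NB_Stim. The NB_FACS arrays agreed to within 0.03, and NB_Stim, well above background on replicate 3 alone, lay below all other arrays. Ms4a7, a member of the membrane-spanning 4-domain family, measured 2.74 and 5.35 in A_FACS, 7.06, 7.54 and 7.78 in NB_FACS, 14.07, 14.22 and 14.09 in NB_Control and 12.50, 12.26 and 12.72 in NB_Stim. None of its 4 groups overlapped.

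Each of the 8 genes differed between the 4 groups by the F test (adjusted p between 3.46e-06 for Ms4a7 and 0.0306 for Folr2), as did 48.8% of all tested genes. Ranked by group mean, the genes fell into 2 kinds. Pf4, F13a1, Ms4a7, Folr2 and Stab1 were highest in NB_Control, and Lyve1, Cd163 and Cbr2 were highest in NB_FACS. For Pf4 and Ms4a7 the order was NB_Control, NB_Stim, NB_FACS and A_FACS. Between neighbours in that order, the step from NB_Control to NB_Stim did not pass the test (adjusted p = 0.683 for Pf4, whose groups overlapped, and 0.149 for Ms4a7, whose groups did not), whereas the other steps passed. For Lyve1, A_FACS, NB_Control and NB_Stim followed NB_FACS, and the steps between them did not pass the test (adjusted p = 0.307 and 0.949). For Cd163 no step between neighbours passed the test (adjusted p from 0.0987 to 0.773). For F13a1 the step from NB_Stim down to A_FACS passed (adjusted p = 0.00457), as did 40.2% of all genes between these groups and 40.8% between NB_Control and A_FACS. For Cbr2 the step from NB_FACS to A_FACS passed (adjusted p = 0.0406). No step of Folr2 or Stab1 did. The spread of the 4 group means ranged from 0.97 between the highest and the lowest for Stab1 to 10.08 for Ms4a7.

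The question of NB_Control against NB_FACS was what isolation and culture do to newborn microglia. In NB_Control Pf4 was 26.2-fold and Ms4a7 101-fold above NB_FACS, while Lyve1, Cd163 and Cbr2 were lower. Genes that serve together as markers of 1 macrophage type thus moved in opposite directions. Of the 8 genes 3 were called higher and 3 lower (limma, adjusted p under 0.05), and 29.7% of all tested genes were called, 15.8% higher and 13.9% lower. The median difference of the 8 was 0.67, against 0.09 over all genes. Pf4 rose by 4.71 (SE 0.72, adjusted p = 0.000825), Ms4a7 by 6.66 (SE 0.52, adjusted p = 1.44e-05) and Stab1 by 0.76 (SE 0.19, adjusted p = 0.0123). Lyve1 changed by -4.81 (SE 0.69, adjusted p = 0.000575), given as at least 20.7-fold on this background correction because NB_Control was not well above background. Such a bound sets the bright group's mean against the lowest signal well above background on the dim arrays, or the gene's own signal if that was higher. Cbr2 changed by -3.15 (SE 0.80, adjusted p = 0.0137) and Cd163 by -3.07 (SE 0.93, adjusted p = 0.0313). Cd163 had passed the filter through NB_FACS alone, which favours a fall from that group. F13a1 (0.62, SE 0.61, adjusted p = 0.506) and Folr2 (0.71, SE 0.58, adjusted p = 0.415) did not pass the test. In 6 of the 8 genes the groups did not overlap, as in 44.2% of all genes.

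Within slide 1 and slide 2 the differences of the called genes kept their sign: 5.73 and 2.67 for Pf4, 6.85 and 6.30 for Ms4a7, 0.87 and 0.55 for Stab1, -4.01 and -6.40 for Lyve1, -3.12 and -2.97 for Cd163, and -4.10 and -1.25 for Cbr2. F13a1 (1.12 and -0.37) and Folr2 (-0.02 and 2.18) changed sign between slides, and without NB_Control replicate 3 the Folr2 difference was -0.15. Leaving out NB_Control replicate 1 or 2, or averaging the cultured replicates 1 and 2, ended the calls of Cd163, Cbr2 and Stab1, and leaving out NB_FACS replicate 3 ended that of Cd163 (-2.23, adjusted p = 0.0877). With another background correction (normexp) the differences of the dim genes were smaller, -2.22 for Lyve1, -1.30 for Cd163 and -2.04 for Cbr2, and all 3 stayed called.

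**Figure D2:**
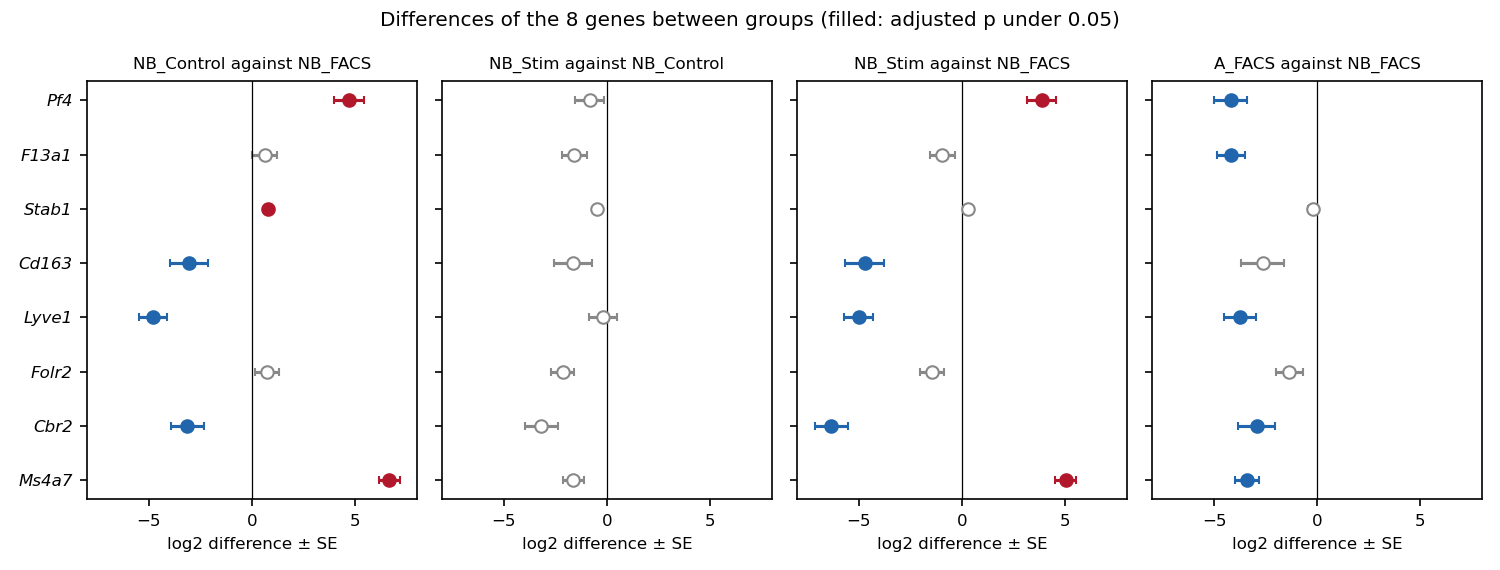
Log2 differences (horizontal axis, ± SE) of the 8 genes in 4 comparisons, with called genes filled (red higher, blue lower) and the others open in grey. Culture gave 3 rises and 3 falls, every difference of NB_Stim against NB_Control lay below 0 without a call, and 5 genes were lower in adult than in newborn sorted cells.

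Markers of other cells moved along with culture. The summed intensity of 8 fibroblast markers was 869 to 1170 in NB_FACS and 12800 to 17000 in NB_Control, and 5 of the 8 were called higher, among them Col1a1, a collagen chain, which rose from 7.11 ± 0.37 (SD, n = 3) to 12.34 ± 0.33. The 7 measured astrocyte markers summed to 2000 to 2120 and 3380 to 3550, with 3 called higher. Of 10 endothelial and lymphatic markers 2 were higher and 4 lower, and their sum was 9360 to 16900 in NB_FACS and 9040 to 9470 in NB_Control. The endothelial claudin Cldn5 fell from 11.99 ± 0.28 to 4.77 ± 0.28. Of the same list, Cdh5 did not pass the test (-0.54, adjusted p = 0.316) and Pdpn rose by 3.7 (adjusted p = 0.00207). Platelet and megakaryocyte markers summed to 1270 to 1490 and 1340 to 2560. Of these 8 genes, Ppbp, a chemokine of platelets, was higher and the glycoprotein Gp9 was lower (from 6.74 ± 0.30 to 4.76 ± 0.09), and the other 6 did not pass the test. Of 6 tested monocyte markers 3 were higher and 1 lower, with sums of 869 to 1060 and 1590 to 1850. The part of these cells in the results for the 8 genes was not tested. In RNA of a bulk sample, fewer cells of a type and less RNA per cell cannot be told apart.

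**Figure D3:**
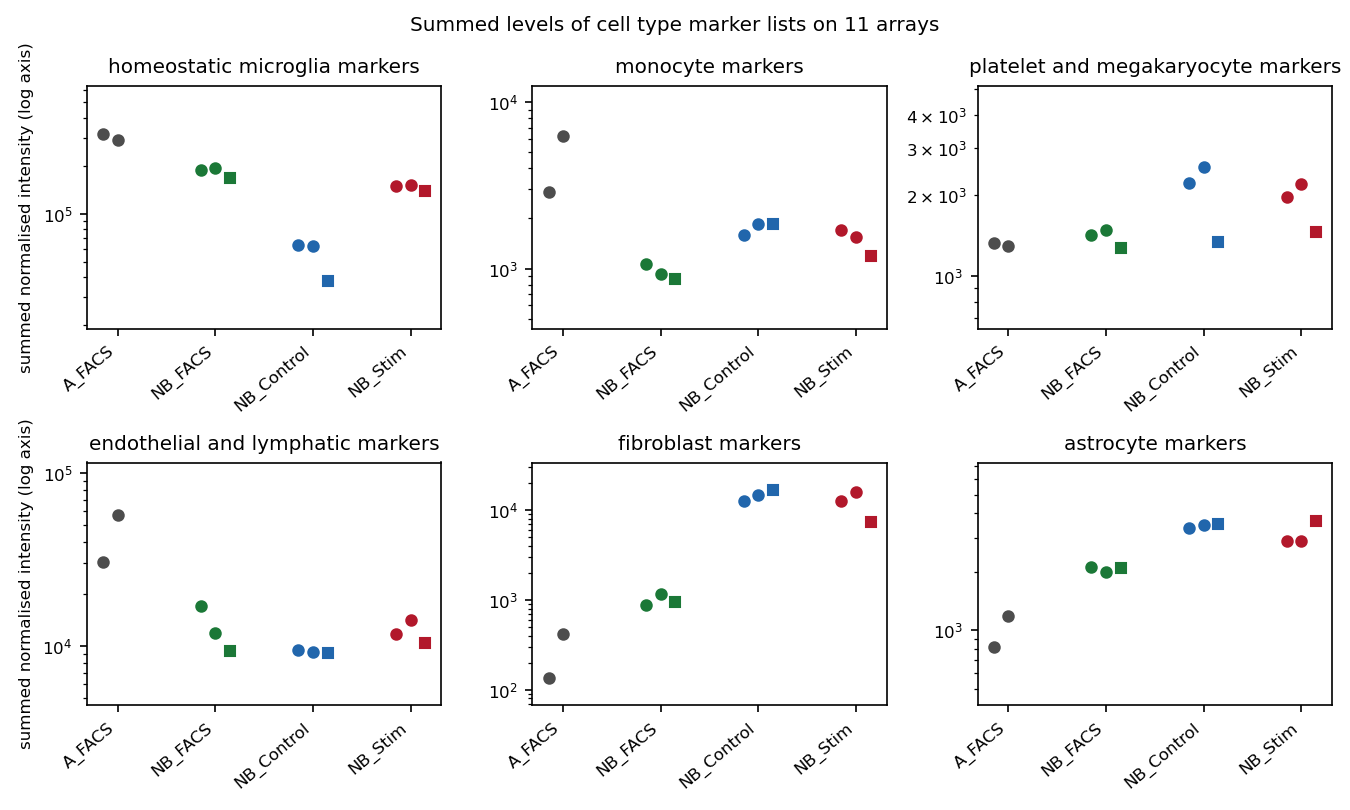
Summed normalised intensity (vertical log axis) of 6 cell type marker lists on each array, by group; circles are replicates 1 and 2 and squares replicate 3. Fibroblast markers reached 7300 to 17000 in the cultured groups and 134 to 1170 in the sorted groups, while platelet markers stayed between 1270 and 2560.

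Next the effect of the cytokines on cultured cells was examined. Each of the 8 genes had a lower mean in NB_Stim than in NB_Control, by 0.21 for Lyve1 up to 3.19 for Cbr2 on the log2 scale, but 0 of 8 were called (limma). Of all genes 50.1% had a lower mean. Of all genes 3.41% were called, 1.4% higher and 2% lower. The median of the 8 was -1.61, and that of all genes 0. At an unadjusted p under 0.05 there were 5 of 8 (F13a1, Cbr2, Ms4a7, Folr2 and Stab1), as against 15.2% of all genes. In 4 of the 8 (F13a1, Cbr2, Ms4a7 and Folr2) the groups did not overlap, as in 24% of all genes. The differences were -3.19 for Cbr2 (SE 0.80, adjusted p = 0.0667), -2.16 for Folr2 (SE 0.58, adjusted p = 0.0859), -1.63 for Ms4a7 (SE 0.52, adjusted p = 0.149), -1.59 for F13a1 (SE 0.61, adjusted p = 0.243) and -0.48 for Stab1 (SE 0.19, adjusted p = 0.253). Those of Cd163 (-1.66, SE 0.93, adjusted p = 0.475), Pf4 (-0.85, SE 0.72, adjusted p = 0.683) and Lyve1 (-0.21, SE 0.69, adjusted p = 0.949) did not pass at an unadjusted p under 0.05 either, and Lyve1 was not well above background on any NB_Control array. Cd163 was well above background on 1 of 3 NB_Control and 0 of 3 NB_Stim arrays, so by the bound above its fall was at least 1.16-fold. Its probe 1, not well above background on any of these arrays, changed by 0.76.

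With the replicate number as a block 2 of the 8 genes were called lower in NB_Stim, Cbr2 (adjusted p = 0.0235) and Folr2 (adjusted p = 0.0419), and 6.1% of all genes were called in either direction. With the slide as a block 3 were, Cbr2 (adjusted p = 0.013), Folr2 (adjusted p = 0.0243) and Stab1 (adjusted p = 0.0361), and 7.55% of all genes were called. With cultured replicates 1 and 2 averaged, and with Tukey's test, 0 of 8 were called, beside 0.603% and 0.936% of all genes. With normexp the Cbr2 difference was -0.98 (adjusted p = 0.238). Within slide 1 and slide 2 the differences were -2.85 and -3.87 for Cbr2, -1.34 and -3.81 for Folr2, -1.76 and -1.37 for Ms4a7, -1.71 and -1.34 for F13a1, -0.58 and -0.29 for Stab1, -1.12 and -0.33 for Pf4, and -0.42 and -4.14 for Cd163. Lyve1 changed sign, with -0.81 and 0.98. Without NB_Control replicate 3 the Folr2 difference was -1.29 (adjusted p = 0.0107), and without NB_Stim replicate 3 that of Cbr2 was -3.80 (adjusted p = 0.045). Ms4a7 was called when either adult array was left out, at an adjusted p of 0.00405 and an unmoved difference, or when the 2 groups were fitted alone (adjusted p = 0.00797), where F13a1 was called too (adjusted p = 0.0191). The 8 fibroblast markers had 1 lower gene between these groups, and their sums were 7300 to 15900 in NB_Stim.

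Against NB_FACS, the cytokine cultures kept the parted pattern. Pf4 was 14.5-fold and Ms4a7 32.8-fold higher, and Cbr2 was lower. Over all alternatives the fall of Cbr2 was 3.02 (normexp) to 6.95 (without NB_Stim replicate 3) on the log2 scale. This comparison shares NB_FACS with the first and NB_Stim with the second. Of the 8 genes 2 were called higher and 3 lower, with 31.1% of all genes called, 16% higher and 15.1% lower. Pf4 rose by 3.86 (SE 0.72, adjusted p = 0.00263) and Ms4a7 by 5.03 (SE 0.52, adjusted p = 7.99e-05). Lyve1 changed by -5.02 (SE 0.69, adjusted p = 0.000458) and Cbr2 by -6.34 (SE 0.80, adjusted p = 0.000261), each measured well above background on 1 of 3 NB_Stim arrays. Cd163 changed by -4.73 (SE 0.93, adjusted p = 0.00352), at least 9.74-fold by the bound above, which holds for this background correction only. With normexp the falls were smaller though still called, -1.61 for Cd163, -3.02 for Cbr2 and -2.22 for Lyve1, and without the filter on dim probes, which brings in Cd163 probe 1, Cd163 changed by -3.12. Folr2 (-1.45, SE 0.58, adjusted p = 0.0891), F13a1 (-0.97, SE 0.61, adjusted p = 0.268) and Stab1 (0.28, SE 0.19, adjusted p = 0.302) did not pass the test. With the replicate block Folr2 was called too (adjusted p = 0.0454, with 40% of all genes called). The groups did not overlap in 6 of the 8 genes, as in 43.5% of all genes. On slide 1 and slide 2 the differences were 4.61 and 2.34 for Pf4, 5.08 and 4.94 for Ms4a7, -4.82 and -5.42 for Lyve1, -3.54 and -7.11 for Cd163, and -6.95 and -5.12 for Cbr2.

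The last comparison set adult against newborn sorted microglia. Here the 8 genes did not part. All 8 means were lower in A_FACS, with a median of -3.17 against -0.01 over all genes, and 5 of 8 were called lower, with 22.7% of all genes called, 9.75% higher and 12.9% lower. Pf4 was 18.4-fold, F13a1 18.1-fold, Lyve1 13.5-fold, Ms4a7 10.7-fold and Cbr2 7.62-fold lower. On the log2 scale the differences were -4.20 for Pf4 (SE 0.80, adjusted p = 0.0049), -4.18 for F13a1 (SE 0.68, adjusted p = 0.00218), -3.75 for Lyve1 (SE 0.77, adjusted p = 0.00715), -3.42 for Ms4a7 (SE 0.58, adjusted p = 0.00269) and -2.93 for Cbr2 (SE 0.89, adjusted p = 0.0406). F13a1 was well above background on 1 of the 2 adult arrays. The folds above hold for the main processing only. Over all alternatives the smallest differences were -2.95 for Pf4, -2.65 for F13a1, -2.04 for Lyve1, -1.56 for Ms4a7 and -2.09 for Cbr2. With normexp Pf4 changed by -3.27. Cd163 (-2.65, SE 1.04, adjusted p = 0.0987), Folr2 (-1.35, SE 0.65, adjusted p = 0.172) and Stab1 (-0.21, SE 0.21, adjusted p = 0.537) did not pass the test. The groups did not overlap in 7 of the 8 genes, Stab1 being the exception, as in 51.2% of all genes.

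With 2 adult arrays, replicate 1 carried much of these calls. Without it F13a1 (-2.94, adjusted p = 0.0163) and Ms4a7 (-2.11, adjusted p = 0.0028) were still called, whereas Pf4 (-2.95, adjusted p = 0.0507), Lyve1 (-3.54, adjusted p = 0.0584) and Cbr2 (-2.15, adjusted p = 0.269) were not. Cbr2 also lost its call in 6 of the other 10 fits that left out an array. Slide 2 held no adult array, and on slide 1 alone the differences were -3.81 for Pf4, -3.62 for F13a1, -2.93 for Lyve1, -3.26 for Ms4a7 and -2.93 for Cbr2. Among the marker lists, 6 of 8 fibroblast and 3 of 7 astrocyte markers were called lower in A_FACS. Of the endothelial and lymphatic markers 2 were higher and 1 lower, and of the monocyte markers 2 were higher and 3 lower. Among the platelet markers 1 was called, higher. Ly6c2, a monocyte surface antigen, was 7.77 ± 0.64 in NB_FACS and 11.10 ± 0.81 (SD, n = 2) in A_FACS. Other monocyte markers went the other way. Plac8 was 6 ± 0.49 in NB_FACS and 5.21 ± 0.32 in A_FACS (adjusted p = 0.277), and S100a4 was called lower (-1.73, adjusted p = 0.00128). The part of such cells was not tested.

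Some replicates of a group differed much in these genes. In A_FACS, replicate 2 exceeded replicate 1 by 2.51 for Pf4, 2.11 for Cd163, 2.46 for F13a1, 2.61 for Ms4a7 and 1.55 for Cbr2, and between 0.491% and 0.844% of all tested genes differed more than the first 4 of these. Folr2 (0.35) and Lyve1 (0.42) differed less, and Stab1 lay 0.14 the other way. The same array had the higher sums of monocyte (6230 against 2860), endothelial and lymphatic (57500 against 30600) and fibroblast markers (416 against 134), and the lower homeostatic sum (289000 against 317000). Its astrocyte sum was higher (1180 against 822) and its platelet sum lower (1290 against 1330). It was also the brighter array, with 78% against 70.2% of probes well above background. A link between these values was not tested. In NB_FACS, replicate 3 exceeded replicate 1 by 2.72 for Lyve1, 2.64 for Cd163, 1.90 for F13a1 and 1.37 for Pf4, but by -0.01 for Cbr2 and -0.36 for Stab1. Replicate 3 had the lowest homeostatic sum of the 3 (167000) and the lowest endothelial and lymphatic sum (9360). In NB_Control, replicate 3 exceeded replicate 2 by 3.15 for Cbr2, 3.08 for Cd163 and 2.75 for Folr2, and 0.0563%, 0.0716% and 0.153% of all genes differed more. Its Pf4 was 1.95 lower, and Ms4a7 differed by 0.13. Its homeostatic sum was 37800, against 62400 and 63700 in the other replicates. Cbr2 was thus the steadiest of the 8 in NB_FACS and the least steady in NB_Control. Replicate 3 of these groups was also the array on slide 2, so slide and replicate cannot be told apart in these values.

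**Figure D4:**
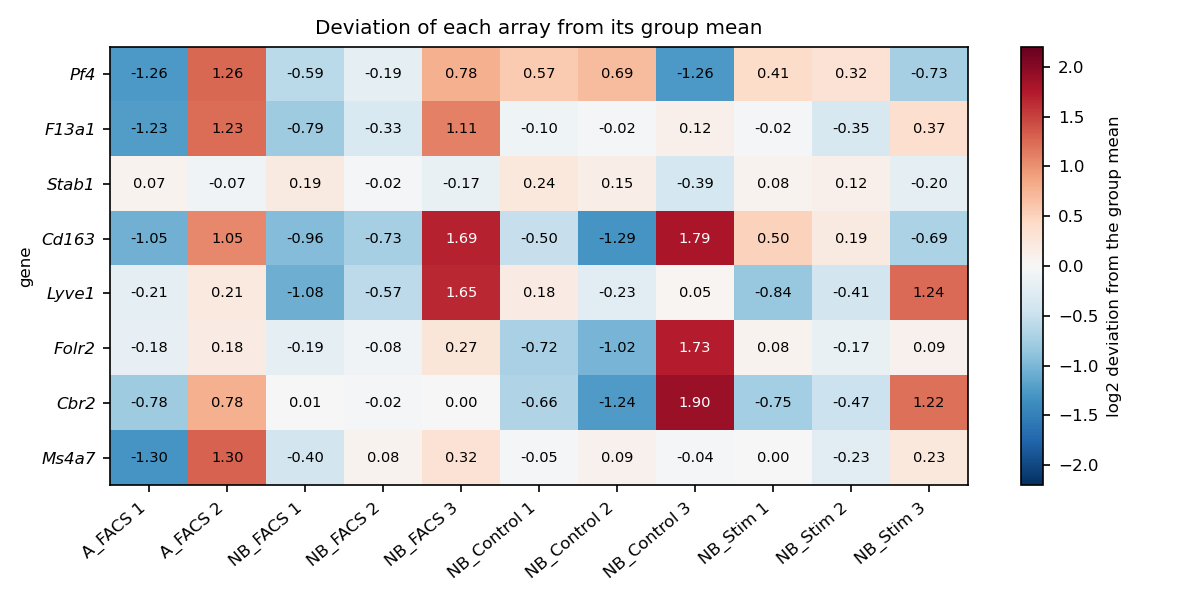
Log2 deviation of each array (columns) from the mean of its group for the 8 genes (rows), red above and blue below. NB_Control replicate 3 is high in Cbr2, Folr2 and Cd163 and low in Pf4, and A_FACS replicate 2 is above replicate 1 in all genes but Stab1.

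Of 24 further genes linked to border macrophages 21 were tested. Culture raised 10 and lowered 2. The 3 largest rises were those of Clec4n, the lectin dectin-2 (6.40, adjusted p = 2.83e-07), Colec12, a scavenger collectin (4.26, adjusted p = 2.96e-06), and Cp, the copper protein ceruloplasmin (3.41, adjusted p = 6.66e-06). The falls were those of the chemokine Ccl24 (-3.47, adjusted p = 0.000103) and of Tgfbi, a matrix protein named for its response to TGF-β (-0.73, adjusted p = 0.0485). The cytokines raised 1 of the 21 and lowered 6, with a median of -0.75. Tgfbi rose by 2.87 (adjusted p = 0.00028), and the largest falls were in Mrc1, the mannose receptor (-5.24, adjusted p = 3.59e-06), Clec4n (-2.86, adjusted p = 0.000251) and Igfbp4, a binding protein of insulin-like growth factors (-2.74, adjusted p = 0.000137). Maf, a macrophage transcription factor named here after its values were seen, changed by -1.77 (adjusted p = 0.000217). Mrc1 stood at 13.15 in NB_FACS and 13.33 in NB_Control (adjusted p = 0.563), so it followed neither the rise of Pf4 and Ms4a7 nor the fall of Lyve1, Cd163 and Cbr2 in culture.

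Between NB_Stim and NB_FACS 8 of the 21 were higher and 5 lower, led by Colec12 (4.65), Clec4n (3.54) and Cp (2.55) on the one side and Mrc1 (-5.07), Ccl24 (-5.00) and Igfbp4 (-2.69) on the other. In A_FACS 3 were higher and 8 lower than in NB_FACS. The rises were those of Hpgd, which degrades prostaglandins (1.88, adjusted p = 0.0162), Lilra5, a leukocyte receptor (1.16, adjusted p = 0.00633), and Cp (1.15, adjusted p = 0.0113). The largest falls were those of Mrc1 (-5.28, adjusted p = 2.04e-06), the endothelin receptor Ednrb (-4.28, adjusted p = 0.00344) and Ccl24 (-2.40, adjusted p = 0.003). The median over the 21 was -0.24, where that of the 8 marker genes was -3.17.

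**Figure D5:**
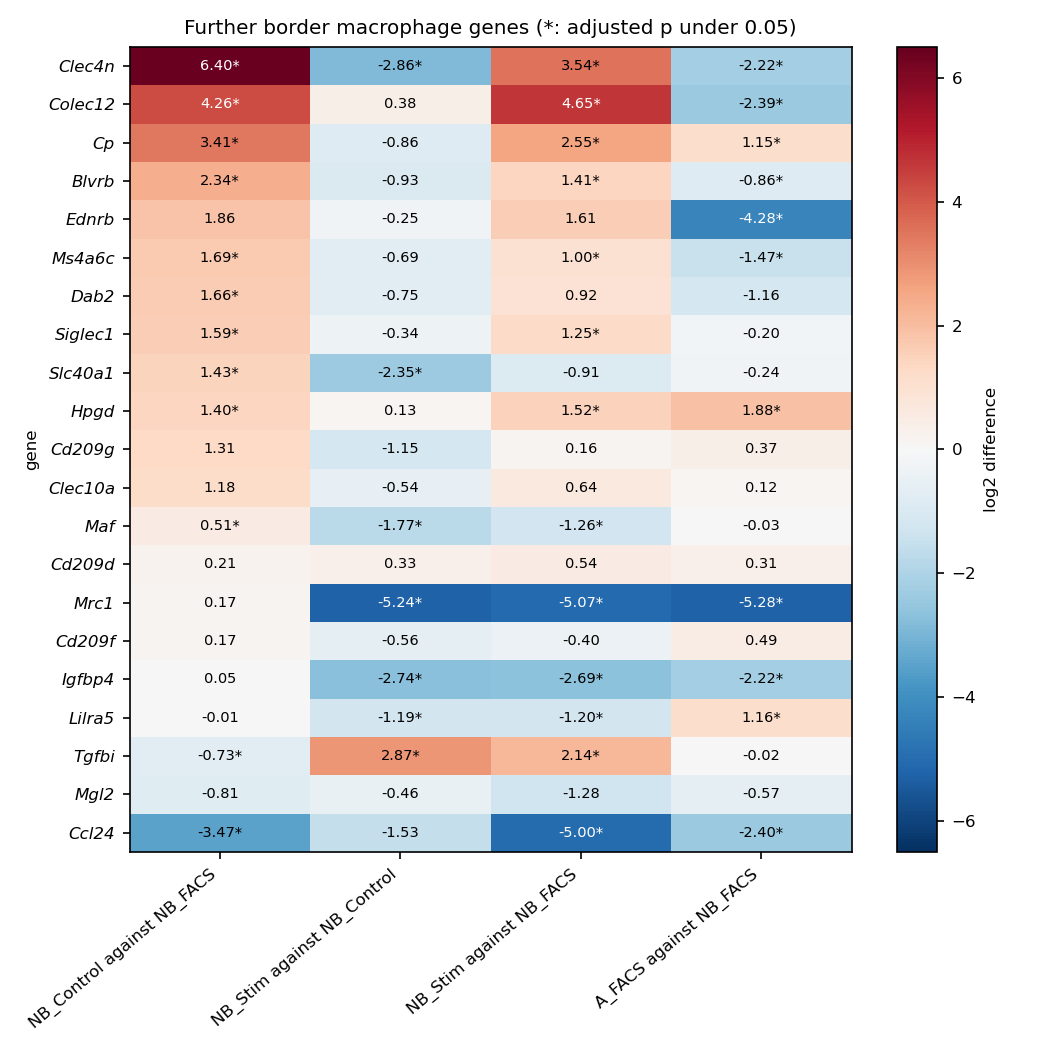
Log2 differences of 21 further border macrophage genes (rows) in 4 comparisons (columns), red higher and blue lower, with an asterisk where the adjusted p was under 0.05. Clec4n and Colec12 rose most in culture, and Mrc1 was lower by 5.07 to 5.28 in 3 of the 4 comparisons.

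Of 12 relatives of the 8 genes 10 were tested. In culture 5 were called higher and 1 lower. Ppbp, the neighbour of Pf4, rose by 6.02 (SE 0.98, adjusted p = 0.00123), from 1.98 ± 1.40 in NB_FACS, where 1 of 3 arrays was well above background, to 8.00 ± 2.22. With the cytokines it stood at 6.42 ± 0.27 (adjusted p = 0.537 against NB_Control). Stab2, the homologue of Stab1, was well above background on 1 of 3 NB_FACS arrays, rose by 3.01 in culture (adjusted p = 0.000586) and was lower by 3.27 on the log2 scale with the cytokines (adjusted p = 0.00333), where Stab1 changed by 0.76 and -0.48. Folr1, next to Folr2 on the chromosome, fell in culture (-2.46, adjusted p = 0.0132), where 1 of 3 arrays was well above background. The carbonyl reductases Cbr3 (2.51, adjusted p = 1.92e-05) and Cbr1 (0.95, adjusted p = 0.0015) rose in culture, the opposite of Cbr2.

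In the Ms4a family, Ms4a6d rose by 2.44 in culture (adjusted p = 7.2e-06) and changed by -1.05 with the cytokines (adjusted p = 0.00887), the same directions as Ms4a7 at smaller size. Ms4a6b gave 0.80 and -1.07 (adjusted p = 0.0631 and 0.0847). Ms4a4b did not pass the test in either step (-1.23 and 0.35) but was higher in A_FACS than in NB_FACS (2.61, adjusted p = 0.00609), where Ms4a7 was lower. Ms4a4c gave -0.63 and -0.92 and was called lower in NB_Stim than in NB_FACS (-1.55, adjusted p = 0.0219). Cd44, a hyaluronan receptor like Lyve1, gave -0.54 in culture and -0.34 between A_FACS and NB_FACS, neither of them called. The 10 relatives had medians of 0.88, -0.85, -0.27 and -0.21 in the 4 comparisons.

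The profiles of the 8 genes over the 11 arrays were set against those of all tested genes by the mean absolute difference of the centred log2 values. The nearest to Pf4 were Col1a1 (0.59) and Gpr176 (0.72), and the nearest to Ms4a7 were Clec4d (0.51) and again Gpr176 (0.67). Lyve1 was nearest to Aspm (0.51) and Troap (0.56), and Cd163 to Cdc42ep2 (0.74) and Kif23 (0.75). F13a1 was nearest to Lpl (0.43) and Ppic (0.52), Cbr2 to Meig1 (0.63) and AA619741 (0.68), Folr2 to Hpse (0.26) and Pdp1 (0.38), and Stab1 to Sh3bgrl3 (0.10) and 2810025M15Rik (0.11). Genes of small variation lie near many others on this measure, as Stab1 did. The nearest pair among the 8 was Pf4 and Ms4a7 (0.73), followed by Folr2 and Stab1 (0.88) and by Cd163 and Lyve1 (0.95).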

How the data were processed

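RNA of 11 mouse microglia samples was labelled with Cy3 and hybridised to single-colour Agilent arrays. The deposited scanner files hold, per the file headers, background-subtracted signal intensity values from Feature Extraction 11.5.1.1 and flags for spots well above background. The authors also deposited a table of the same intensity values, not normalised between arrays; of its 62927 entries, 0 differed from the scanner files beyond a relative tolerance of 1e-05. No spot was saturated.

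The deposited intensity was put on the log2 scale, spots of a probe were averaged without outlier spots and probes were quantile normalised. A probe was kept if all arrays of 1 or more groups were well above background. This left 44727 probes, of which 28027 had a symbol through RefSeq accessions (GRCm38.p6, used for names, gene order and promoters; it differs from the mm9 build in the file headers, so no probe position is given). Overall 60.4% of probes matched. Probes of a gene were averaged to 19555 genes, and each gene was fitted with 1 mean per group in limma 3.58.1 under R 4.3.3. Tests were two-sided, with Benjamini-Hochberg adjustment over all genes in each comparison and an adjusted p under 0.05 as the threshold. The fit was tested on simulated data. Figures were drawn with matplotlib 3.10.9.

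Groups and replicate numbers came from the sample titles. Arrays were centred on their group and checked for whether the same numbers deviate together. Among the newborn groups all 9 same-number pairs had a correlation above 0.1 (0.11 to 0.49). Replicate numbers were therefore taken to pair them in the replicate block fit, whereas the main fit held no block. Replicate 3 is also slide 2, however: on slide 1 alone, same-number pairs (0.11 to 0.37) and other pairs (0.19 to 0.36) overlapped, so number and slide cannot be told apart in the block. By contrast, same-number pairs with adult arrays ran from -0.07 to 0.17. In the block fits the adult arrays were still entered under their replicate number or slide. With the replicate block the Pf4 difference of A_FACS against NB_FACS was -4.41 instead of -4.2.

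The 8 genes and all gene lists were chosen with earlier results of these data known. Named genes are the 8, the relatives, the 3 largest rises and falls among called further genes per comparison, the 2 nearest profiles per gene and the leading genes of the marker lists. An item of the further gene list is not reported here. No test was made over lists. Alternatives were 75th percentile scaling, normexp, the authors' table, no filter, the brightest probe, the compared groups alone, slide and replicate blocks, cultured replicates 1 and 2 averaged, Tukey's test and leaving out each array.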

Additional observations from a re-analysis of the deposited data

How the results depend on the processing

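The 8 genes gave 32 differences in 4 comparisons, each recomputed under up to 21 alternatives. Of these 672 values 617 kept their sign and their side of the threshold, 32 lost and 18 gained a call, and 0 calls turned direction. The other 5 were uncalled and turned sign or went to 0, 4 of them for Lyve1 between NB_Stim and NB_Control (0 to 0.21, from -0.21) and 1 for Folr2 in culture. The pairing by replicate number (replicate block) raised the genes called between NB_Stim and NB_Control from 0 to 2, added Folr2 between NB_Stim and NB_FACS, and changed no other call. Slide as a block gave 3 calls in the former comparison, normexp 1 (Ms4a7, adjusted p = 0.000917), the compared groups alone 2, Tukey's test and averaging cultured replicates 1 and 2 gave 0, and leaving out 1 array between 0 and 1. Between NB_Control and NB_FACS the count of 6 fell to 3 with Tukey's test and with cultured replicates 1 and 2 averaged, and lay between 3 and 6 when 1 array was left out. Between NB_Stim and NB_FACS it was 5, 3 with Tukey's test, and 5 to 6 without 1 array. For A_FACS against NB_FACS it was 5, 1 with Tukey's test, and 2 to 6 without 1 array. The F test called 7 or 8 genes in every setting run for it. Where a lone array was left in a group, it was assumed to vary like the others. The share of all genes called moved as well. Between NB_Stim and NB_Control it was 3.41% in the main fit, 5.16% with normexp and 2.33% with the compared groups alone. It was 0.936% there with Tukey's test and 0.603% with cultured replicates 1 and 2 averaged. Between NB_Control and NB_FACS the same settings gave 18.1% and 20.8% instead of 29.7%. With Tukey's test it was 18.5% between NB_Stim and NB_FACS and 10.3% between A_FACS and NB_FACS. The causes of these shifts were not tested. Signals near background limit Cd163, Lyve1 and Cbr2 in NB_Stim, where the size of a fall depends on the background correction. Between A_FACS and NB_FACS the falls varied in size too, with smallest differences of -2.04 for Lyve1 and -1.56 for Ms4a7. Folr2 without NB_Control replicate 3 changed by -0.15 in culture instead of 0.71.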
